A study of Mus musculus with 14 samples.

Results

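The urea cycle and ammonia handling were followed through 10 genes of mouse liver: the 5 enzymes of the cycle (Cps1, Otc, Ass1, Asl and Arg1), the enzyme that makes its activator (Nags), the mitochondrial carriers Slc25a15 and Slc25a13, and the glutamine enzymes Gls2 and Glul. They were picked by gene symbol, and each matched 1 of the 45706 rows of the count table. RNA was sequenced in 14 liver libraries of male C57BL6/J mice that entered the study at 8 weeks of age. Of these, 3 libraries came from mice on a MASH diet given C18:1-leucine, 4 from mice on that diet given C18:1, 3 from mice on that diet labelled MASH alone, and 4 from mice on chow (CD). The MASH diet, a model diet for metabolic dysfunction-associated steatohepatitis (inflamed and scarred fatty liver), was fed for 16 weeks and then for the 6 weeks of treatment. C18:1 (OA in the titles) is a fatty acid with 1 double bond, and C18:1-leucine (OAL) is that acid coupled to the amino acid leucine. The sources used here do not give doses, a treatment period for the chow mice or whether the MASH mice received vehicle, so age at collection and handling cannot be told apart from diet in any comparison with chow.

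Amino acid breakdown releases ammonia, which the liver removes by a pair of routes. Hepatocytes around the portal vein turn it into urea: carbamoyl phosphate is made and joined to ornithine in the mitochondrion, and citrulline is then carried to the cytosol, combined with aspartate, and split by way of arginine into urea and ornithine. A thin layer of hepatocytes around the central vein takes up the ammonia that escapes and fixes it into glutamine. Periportal glutaminase frees ammonia from glutamine and feeds it into the cycle.

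The promoters of 3 members are shown because Glul was the member that was higher than in chow livers in all MASH-diet groups, while Otc and Slc25a13 were the members called between C18:1-leucine and C18:1 livers. Each is the 250 bases before the gene's start in RefSeq, build GRCm38.p6, read 5′ to 3′ on the gene's strand, with the letters CCAAT in capitals. The Glul window lies at chr1:153899679-153899928 on the plus strand, the Otc window at chrX:10252055-10252304 on the plus strand and the Slc25a13 window at chr6:6217174-6217423 on the minus strand.
Glul: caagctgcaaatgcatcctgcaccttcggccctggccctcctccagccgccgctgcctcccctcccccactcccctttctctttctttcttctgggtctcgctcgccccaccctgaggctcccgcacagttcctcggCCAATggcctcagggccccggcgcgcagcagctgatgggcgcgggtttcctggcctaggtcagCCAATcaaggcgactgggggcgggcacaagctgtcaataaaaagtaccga
Otc: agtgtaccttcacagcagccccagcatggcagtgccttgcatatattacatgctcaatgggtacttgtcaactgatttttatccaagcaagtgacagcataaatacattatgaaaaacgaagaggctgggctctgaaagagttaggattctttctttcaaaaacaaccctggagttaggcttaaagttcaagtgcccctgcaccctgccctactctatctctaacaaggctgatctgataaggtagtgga
Slc25a13: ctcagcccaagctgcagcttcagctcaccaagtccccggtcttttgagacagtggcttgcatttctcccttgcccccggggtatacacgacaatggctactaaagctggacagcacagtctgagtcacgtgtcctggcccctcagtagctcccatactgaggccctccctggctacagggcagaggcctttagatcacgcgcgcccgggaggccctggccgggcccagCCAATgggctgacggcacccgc
The Glul window holds CCAAT at −113 and −50 from the start and has 64.8% G+C with 15 CpG dinucleotides. The Slc25a13 window holds CCAAT at −22 and has 62.8% G+C with 11 CpG. The Otc window has 43.6% G+C and 1 CpG, against medians of 52.4% and 6 CpG over 32851 RefSeq windows. RefSeq windows were found for 6 members (these 3, Ass1, Nags and, with 2 windows, Slc25a15). On both strands, 7 patterns were searched. CCAAT, in 33.8% of all windows, was found in those of Glul and Slc25a13. CTTTGAT (a TCF/LEF pattern, 3.21% of all windows) was found in that of Nags, at −204 on the reverse strand. TTGCNNAA (C/EBP, 9.56%), TGACGTCA (CREB, 1.55%), CAAAGTCCA (HNF4, 0.384%), a nuclear receptor direct repeat with 1 spacer base (0.0335%) and TATAAA (12.4%) were in 0 of the members' windows. A match is a run of letters, not a shown binding site.

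Total counts per library ran from 33821899 to 51107275, and the least abundant member, Nags, had at least 2052 counts in each library. Levels are given as CPM, read counts relative to the library total scaled for composition (TMM), in the usual unit of that name, and are listed in replicate order: C18:1-leucine replicates 1, 2 and 4, C18:1 replicates 1 to 4, MASH replicates 2 to 4 and chow replicates 1 to 4. Titles set the groups, and the treatment tag disagreed with the title for C18:1 replicate 1, tagged with the diet alone, and C18:1-leucine replicate 1, tagged as C18:1. The labels do not say that each library came from a separate mouse, so p-values measure the spread between these libraries. Hepatocyte transcripts were abundant in every library, with 15 general markers summing to between 77160 and 148000 CPM. Cholangiocyte (bile duct) markers stood apart in MASH replicate 4 and C18:1 replicates 1 and 3, at 370.4, 432.7 and 393 CPM against 33.7 to 209.6 CPM elsewhere. Most of that sum in MASH and chow livers came from 1 marker, Spp1, at 160.2 and 32.3 CPM on average. Pancreas markers stood apart in C18:1-leucine replicate 2 and chow replicate 2, at 866 and 187 CPM against 3.73 to 7.68 CPM elsewhere.

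**Figure D1:**
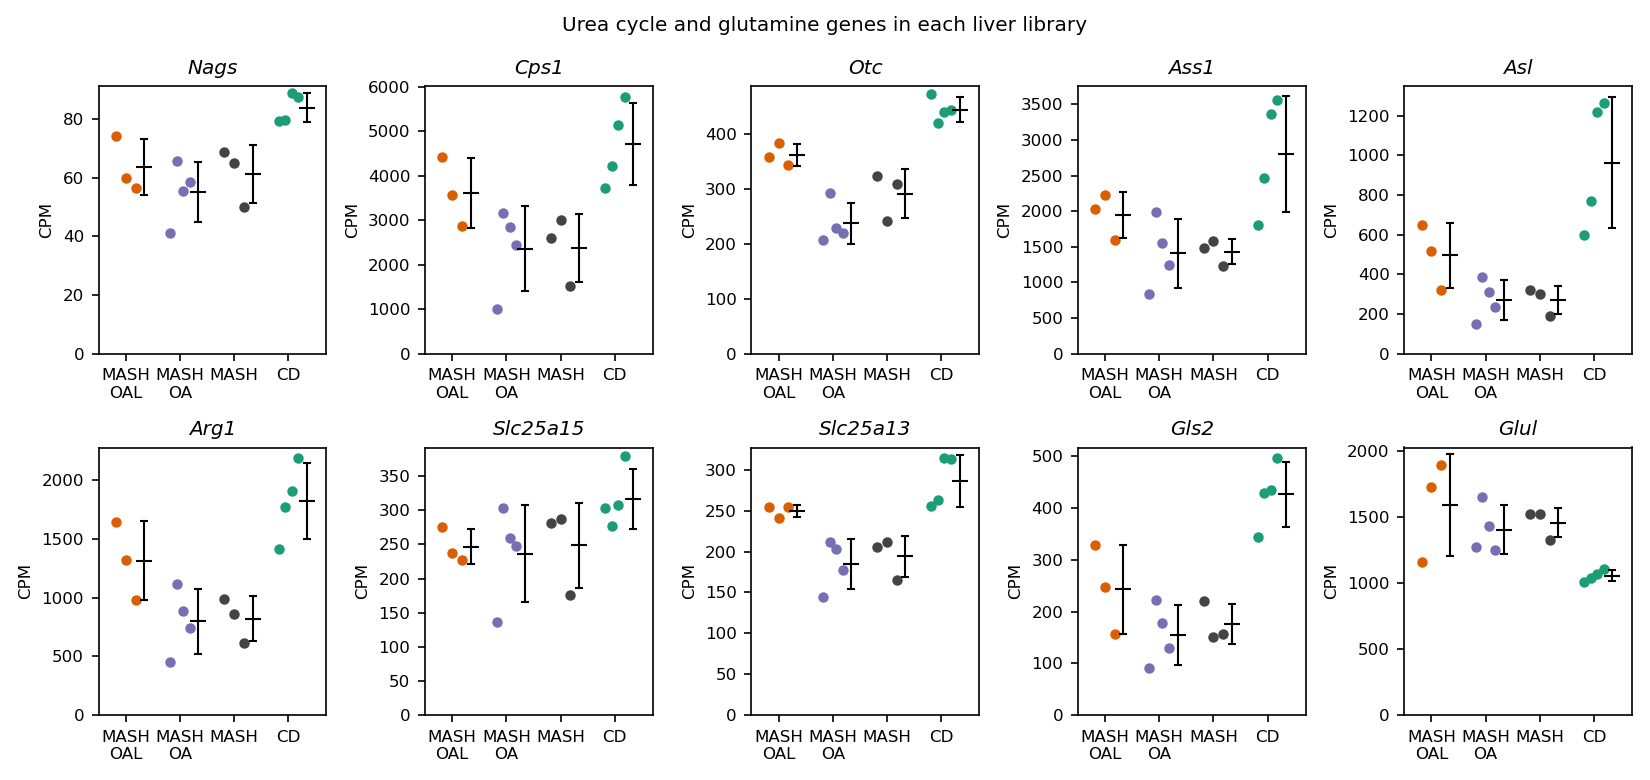
Level of each of the 10 genes in every library, in CPM, with points for libraries and a bar for each group mean. Groups run from C18:1-leucine on the left to chow on the right. The chow mean is the highest in every panel except that of Glul, where it is the lowest, and C18:1 replicate 1 is the lowest point of its group for 9 of the 10 genes.

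In chow livers, levels per kilobase of exon spanned a wide range and gave the order of abundance. Ass1 was highest at 1161 ± 339 CPM per kilobase (SD, n = 4), then Cps1 at 849 ± 166 and Arg1 at 817 ± 145. Glul followed at 317 ± 12.4, Asl at 199 ± 68.4, Gls2 at 123 ± 18 and Otc at 105 ± 5.26. The carriers Slc25a13 and Slc25a15 stood at 75.5 ± 8.42 and 56.3 ± 7.84, and Nags was lowest at 29.6 ± 1.75. Libraries of neighbours in this order overlapped among Ass1, Cps1 and Arg1, among Asl, Gls2 and Otc, and between the carriers, so those orders do not exceed the spread. In MASH livers Glul stood at 438 ± 33.8 CPM per kilobase (n = 3), next to Cps1 at 426 ± 138.

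MASH livers held less urea cycle RNA than chow livers. Of the 10 genes, 8 were lower, 1 (Glul) was higher and 1 (Slc25a15) did not pass an adjusted p of 0.05 in edgeR's quasi-likelihood test, where 35.5% of all 15676 tested genes were called, 15.1% as lower and 20.4% as higher. The median log2 fold change of the 10 was −0.79, against 0.01 for all tested genes. The libraries of both groups did not overlap for 9 of the 10, against 40.2% of all genes, and 9 had an unadjusted p under 0.05, against 46.3%. The 5 cycle enzymes and Nags all passed, and fell by between 0.45 (Nags) and 1.83 (Asl) on the log2 scale. In bulk liver, fewer cells of a type and less RNA per cell cannot be told apart. Between 5 and 8 members stayed lower when any 1 library was left out, with 5 without MASH replicate 4, where Cps1 (adjusted p = 0.157), Ass1 (0.0722) and Nags (0.145) were lost.

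Nags (chr11:102145513-102149477, plus strand; positions of whole genes are from GENCODE M21 on GRCm38) makes N-acetylglutamate, the compound that switches Cps1 on. It stood at 74.4, 59.7 and 56.5 CPM in C18:1-leucine libraries, 41.2, 65.6, 55.3 and 58.6 in C18:1 libraries, 68.6, 65.0 and 49.9 in MASH libraries and 79.4, 79.8, 88.9 and 87.4 in chow libraries. The means were 63.5 ± 9.52 CPM in C18:1-leucine livers (SD, n = 3), 55.2 ± 10.3 in C18:1 livers (n = 4), 61.2 ± 9.92 in MASH livers (n = 3) and 83.9 ± 4.96 in chow livers (n = 4). The chow libraries lay above all others. Its log2 fold change was −0.45 ± 0.15 (SE) in MASH against chow (edgeR, adjusted p = 0.0313) and the call was also lost without chow replicate 3 or 4 (0.0698 and 0.0513). An antisense gene, Gm11586, overlaps Nags, and held 971 counts in all against 38967 for Nags.

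Cps1 (chr1:67123026-67231259, plus strand) makes carbamoyl phosphate from ammonia and bicarbonate, the entry step of the cycle. Its levels were 4419, 3555 and 2859.8 CPM in C18:1-leucine libraries, 989.6, 3155, 2834 and 2445 in C18:1 libraries, 2589, 2999 and 1517 in MASH libraries and 3713, 4219.9, 5147 and 5774 in chow libraries. Every C18:1 and MASH library lay below every chow library, and the C18:1-leucine libraries reached into the ranges of all the other groups, 1 of the 3 within the chow range. The log2 fold change in MASH against chow was −0.99 ± 0.34 (edgeR, adjusted p = 0.0392), the nearest to the threshold of the lower genes. That call was kept in 15 of 25 alternatives, with adjusted p from 0.00669 to 0.157. It was lost without C18:1-leucine replicate 2 (0.0512), C18:1 replicate 4 (0.0503), MASH replicate 2 (0.0703) or chow replicate 2, 3 or 4 (0.0519, 0.0768 and 0.0797), as well as without MASH replicate 4.

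Otc (chrX:10252305-10321024, plus strand) joins carbamoyl phosphate to ornithine to give citrulline. It stood at 357, 384 and 344 CPM in C18:1-leucine libraries, 207, 292, 228 and 220.1 in C18:1 libraries, 324, 240.5 and 309 in MASH libraries and 474, 419, 440.1 and 444 in chow libraries. The C18:1-leucine libraries formed a band of their own, above every C18:1 and MASH library and below every chow library. Against chow the log2 fold change was −0.61 ± 0.13 in MASH livers (edgeR, adjusted p = 0.00264) and −0.91 ± 0.12 in C18:1 livers (3.87e-05), and both calls were kept in all 25 alternatives.

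Ass1 (chr2:31470207-31520672, plus strand) couples citrulline to aspartate, which brings in the second nitrogen of urea. It stood at 2028, 2232 and 1599 CPM in C18:1-leucine libraries, 839.6, 1989, 1549.9 and 1245 in C18:1 libraries, 1481, 1584 and 1234 in MASH libraries and 1805, 2469.8, 3364 and 3569 in chow libraries. All MASH libraries lay below all chow libraries, while 1 C18:1 library and 2 C18:1-leucine libraries reached the chow range. Its log2 fold change in MASH against chow was −0.97 ± 0.28 (edgeR, adjusted p = 0.0169). The deposited Ass1 counts were fractional in 13 libraries and those of Glul in all 14. The sources used here do not say how reads were divided between features, so both levels are uncertain to that extent.

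Asl (chr5:130011258-130029247, minus strand) splits argininosuccinate into arginine and fumarate, and was the member with the largest fall in MASH and C18:1 livers. It stood at 648, 519 and 323 CPM in C18:1-leucine libraries, 148, 386, 309.8 and 236 in C18:1 libraries, 320.4, 302 and 190.3 in MASH libraries and 598, 769.6, 1217 and 1265 in chow libraries. Every MASH and C18:1 library lay below every chow library, and 1 C18:1-leucine library lay just inside the chow range. The log2 fold change was −1.83 ± 0.37 in MASH against chow (edgeR, adjusted p = 0.00256) and −1.83 ± 0.33 in C18:1 against chow (0.000635).

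Arg1 (chr10:24915221-24927484, minus strand), the last enzyme, cuts arginine into urea and ornithine. It stood at 1646, 1317 and 977 CPM in C18:1-leucine libraries, 451, 1115, 883 and 739 in C18:1 libraries, 983, 863 and 611 in MASH libraries and 1412, 1772, 1909 and 2189.9 in chow libraries. Every MASH and C18:1 library lay below every chow library, and the C18:1-leucine libraries reached from the MASH range into the chow range. In MASH against chow Arg1 fell by 1.15 on the log2 scale (SE 0.28, edgeR, adjusted p = 0.00712).

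Of the carriers, Slc25a13 was lower in MASH livers and Slc25a15 did not pass the test. Slc25a13 (citrin, chr6:6041218-6217173, minus strand) exports the aspartate that Ass1 uses. It stood at 254, 241 and 254 CPM in C18:1-leucine libraries, 145, 212, 204 and 178 in C18:1 libraries, 205, 212 and 166 in MASH libraries and 255, 263, 315 and 314 in chow libraries. The C18:1-leucine libraries again sat above all C18:1 and MASH libraries, and their highest value was just under the lowest chow value. In MASH against chow Slc25a13 fell by 0.56 on the log2 scale (SE 0.13, edgeR, adjusted p = 0.00592). Slc25a15 (chr8:22375551-22398597, minus strand) exchanges ornithine for citrulline across the mitochondrial membrane. It stood at 276, 238 and 227 CPM in C18:1-leucine libraries, 136, 303, 259.8 and 248 in C18:1 libraries, 281, 288 and 176 in MASH libraries and 304, 276, 308 and 379.7 in chow libraries. Its MASH and C18:1 libraries overlapped the chow range, and its log2 fold change in MASH against chow had a 95% interval of −0.86 to 0.15 (edgeR, adjusted p = 0.258).

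**Figure D2:**
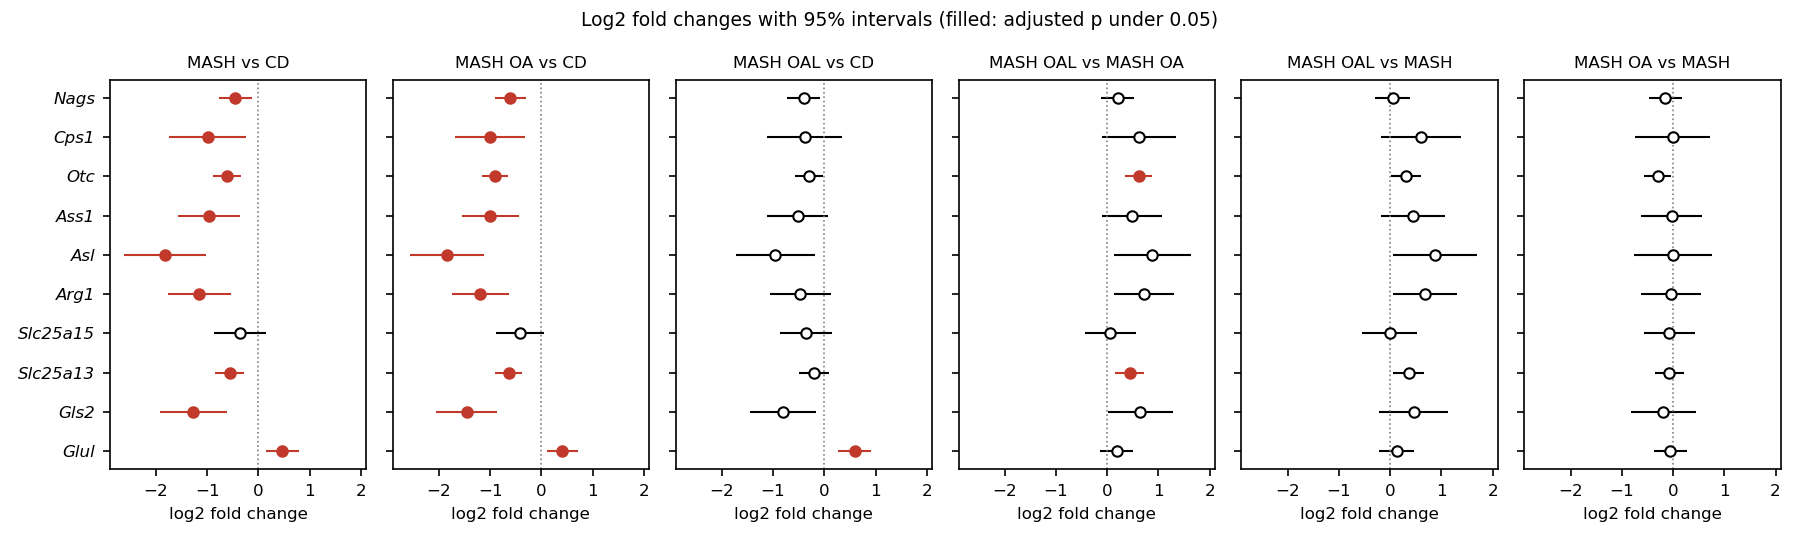
Log2 fold change of each gene with its 95% interval in 6 comparisons, filled where edgeR's adjusted p was under 0.05. The first group named in a panel title is the numerator. In MASH against chow 8 genes are filled below 0 and Glul above it, and in C18:1-leucine against C18:1 the points lie above 0 and only Otc and Slc25a13 are filled.

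The glutamine enzymes went opposite ways. Gls2 (chr10:128194457-128210004, plus strand) is the liver glutaminase that frees ammonia from glutamine. It stood at 328, 247 and 156 CPM in C18:1-leucine libraries, 90.3, 223, 179 and 129 in C18:1 libraries, 221, 152 and 157 in MASH libraries and 345, 428, 436 and 497 in chow libraries. All 10 libraries of the MASH diet lay below all chow libraries. Gls2 overlaps Spryd4 on the opposite strand, which held 15865 counts in all against 145585 for Gls2, and the sources used here do not give the strand setting of the counting. The log2 fold change was −1.27 ± 0.30 in MASH against chow (edgeR, adjusted p = 0.00628) and −1.46 ± 0.28 in C18:1 against chow (0.000809). In C18:1-leucine against chow it was −0.81 ± 0.30 (0.0842).

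Glul (chr1:153899944-153909723, plus strand) is glutamine synthetase, which fixes ammonia onto glutamate. It stood at 1158, 1723 and 1894 CPM in C18:1-leucine libraries, 1274, 1652, 1431 and 1249 in C18:1 libraries, 1521, 1521 and 1327 in MASH libraries and 1007, 1039, 1067 and 1104 in chow libraries. All 10 MASH-diet libraries lay above all chow libraries. Relative to chow, Glul was higher by 0.59 ± 0.15 on the log2 scale in C18:1-leucine livers (edgeR, adjusted p = 0.0209), by 0.41 ± 0.14 in C18:1 livers (0.0247) and by 0.47 ± 0.15 in MASH livers (0.0279). These calls stood near the threshold. In MASH livers the call was lost without MASH replicate 2 or 3 (0.0776 and 0.0777) or chow replicate 1, 2 or 3 (0.0573, 0.0539 and 0.0524). In C18:1 livers it was lost without C18:1 replicate 2 or 3 (0.0719 and 0.0507) or chow replicate 1 or 2 (0.0559 and 0.0505). In C18:1-leucine livers it was lost without C18:1-leucine replicate 2 or 4 (0.0699 and 0.109). When a rise of more than 1.2-fold was asked, none of the 3 passed, with adjusted p of 0.0848, 0.136 and 0.132.

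Within a library, the ratio of the Gls2 count to the Glul count was 0.283, 0.143 and 0.0824 in C18:1-leucine livers, 0.0708, 0.135, 0.125 and 0.103 in C18:1 livers, 0.145, 0.0997 and 0.119 in MASH livers and 0.342, 0.412, 0.409 and 0.450 in chow livers. The chow ratios lay above all others. C18:1-leucine replicate 1, the library tagged as C18:1, was nearest to them. The mean log2 ratio was −2.74 ± 0.89, −3.25 ± 0.41, −3.06 ± 0.27 and −1.32 ± 0.17 (SD) in C18:1-leucine, C18:1, MASH and chow livers, so the C18:1-leucine libraries were the most spread. A ratio within a library shows unequal change of both genes, not which moved.

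**Figure D3:**
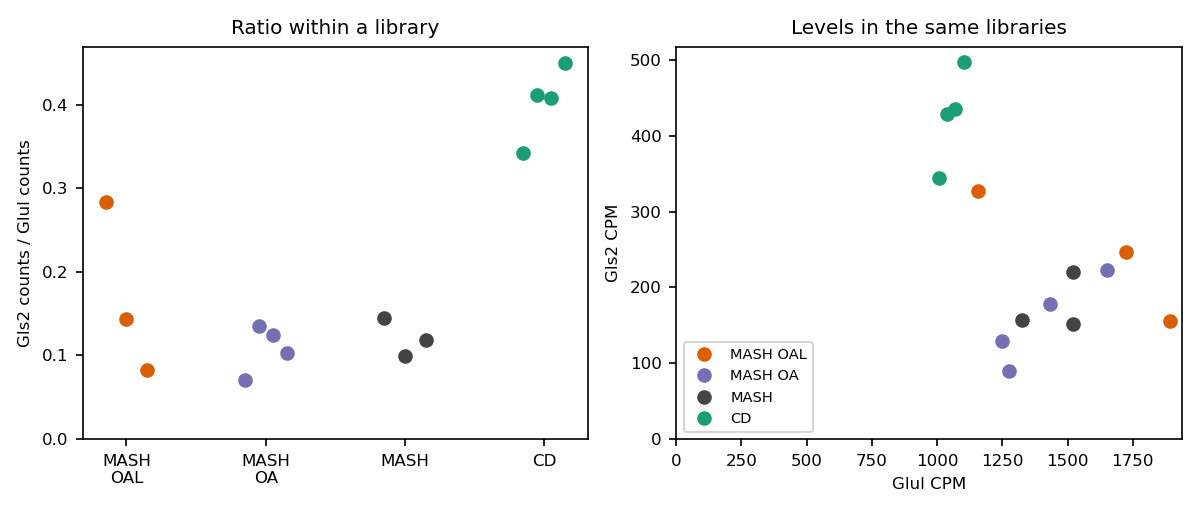
Gls2 against Glul in each of the 14 libraries, in CPM, coloured by group. The chow libraries form a cluster at high Gls2 and low Glul, and the C18:1-leucine libraries run from Gls2 328 with Glul 1158 to Gls2 156 with Glul 1894 CPM.

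The comparison of C18:1-leucine with C18:1 sets 2 compounds that differ by the coupled leucine against each other after the same 6 weeks on the same diet, although the sources used here do not say whether their doses matched. Otc and Slc25a13 were higher in C18:1-leucine livers, and the other 8 genes did not pass the test. Otc was higher by 0.61 ± 0.12 on the log2 scale (95% interval 0.35 to 0.88, edgeR, adjusted p = 0.00817) and Slc25a13 by 0.44 ± 0.13 (0.15 to 0.72, adjusted p = 0.0386). Of all tested genes 16.2% were called, 7.34% as higher and 8.89% as lower, and the 2 of 10 is not read as a result about the set beside that background. The libraries of both groups did not overlap for these 2 genes, against 27.7% of all genes, and 5 members had an unadjusted p under 0.05, against 32%. The log2 fold changes of all 10 genes were above 0, with a median of 0.54 against −0.02 for all genes and 0.32 for general hepatocyte markers. These signs are not separate observations, since many members moved together between libraries of a group. Within groups, Cps1 correlated with Arg1 at 0.941 and with Slc25a15 at 0.964, but with Otc at 0.236 and with Glul at 0.192.

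Intervals for the other enzymes reached from near 0 to sizeable differences. Asl had a log2 fold change of 0.88 (95% interval 0.13 to 1.63, edgeR, adjusted p = 0.103), Arg1 0.72 (0.13 to 1.31, 0.0876), Gls2 0.65 (0.02 to 1.28, 0.142) and Cps1 0.62 (−0.10 to 1.34, 0.224). For Ass1 it was 0.47 (−0.11 to 1.06), for Nags 0.20 (−0.12 to 0.53), for Glul 0.18 (−0.14 to 0.51) and for Slc25a15 0.06 (−0.44 to 0.56). These intervals do not show that both compounds left the genes alike. Without C18:1 replicate 2, the highest C18:1 library for all 10 genes, 5 genes were called, with Asl (0.0497), Arg1 (0.0314) and Gls2 (0.0486) added. DESeq2 called 4 genes, with Asl and Arg1 added, and limma voom 5, with Gls2 as well.

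The calls between both compounds depended on the libraries whose labels disagree. With groups taken from the treatment tags, Otc was at a log2 fold change of 0.41 (edgeR, adjusted p = 0.434) and Slc25a13 at 0.22 (0.629), while Cps1 stood at −0.002, and 6 of 10 values were above 0 with a median of 0.08. With both of those libraries left out, Otc was at 0.56 (0.0603) and Slc25a13 at 0.32 (0.194), with 8 of 10 values above 0 and a median of 0.29. The Otc call was kept when any 1 of the 14 libraries was left out, with adjusted p from 0.0027 to 0.0451. Over all 25 alternatives its adjusted p ran from 5.86e-05 to 0.434. Slc25a13 was lost without C18:1-leucine replicate 1, 2 or 4 (0.104, 0.0946 and 0.0673) or C18:1 replicate 1 or 4 (0.0928 and 0.0933). In alternatives chosen after seeing the data, leaving out the 3 libraries rich in cholangiocyte markers gave Otc 0.51 (0.0807) and Slc25a13 0.37 (0.110), and leaving out the 2 rich in pancreas markers gave Otc 0.57 (0.0561) and Slc25a13 0.46 (0.110).

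Compared with MASH livers, neither compound gave a called member. In C18:1-leucine against MASH livers 0 of 10 passed in edgeR, DESeq2 or limma voom, where edgeR called 0.0702% of all genes (0.00638% as higher and 0.0638% as lower), and 4 had an unadjusted p under 0.05, against 18.1% of all genes. These 4 were Asl at a log2 fold change of 0.87 (95% interval 0.06 to 1.69), Arg1 at 0.68 (0.05 to 1.31), Slc25a13 at 0.36 (0.06 to 0.67) and Otc at 0.31 (0.03 to 0.60), with adjusted p of 0.203 or more. Libraries did not overlap for Otc, Ass1, Asl and Slc25a13, against 22.3% of all genes, and the median of the 10 was 0.40 against −0.01. In C18:1 against MASH livers 0 of 10 passed in any of the 3 tools, and edgeR called 0% of all genes. There 1 member had an unadjusted p under 0.05, against 6.18% of all genes: Otc, at −0.30 (−0.56 to −0.03, adjusted p = 0.772). The median of the 10 was −0.06 against 0.00, and the groups overlapped for all 10, while 5.46% of all genes had groups that did not. The interval for Cps1 was −0.73 to 0.72 and that for Asl −0.76 to 0.75. With groups from the treatment tags, 0 members passed, but the median was 0.36 and 9 of 10 values were above 0, with Asl at 0.72, Cps1 at 0.67 and Arg1 at 0.59 (edgeR, adjusted p = 1 for each). With the libraries of disagreeing labels left out the median was 0.08, with Cps1 at 0.25.

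Compared with chow livers, C18:1 livers were lower in 8 members and higher in Glul, where 52.6% of all genes were called, 24.9% as lower and 27.8% as higher. The lower members fell by between 0.61 (Nags) and 1.83 (Asl) on the log2 scale, with Cps1 at −1.0 ± 0.31 (edgeR, adjusted p = 0.0169) and Arg1 at −1.19 ± 0.26 (0.00184). Slc25a15 was at −0.42 ± 0.22 (0.116). With groups from the tags, Cps1 was at −0.55 (0.162) and Arg1 at −0.73 (0.0504). Libraries did not overlap for 8 members, against 46.6% of all genes, and 9 had an unadjusted p under 0.05, against 58.8%.

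In C18:1-leucine livers against chow, Glul was higher and 0 members were lower in edgeR, where 14.5% of all genes were called, 4.34% as lower and 10.2% as higher. Including Glul, 5 members had an unadjusted p under 0.05, against 31.4% of all genes. The others were Asl at a log2 fold change of −0.96 (95% interval −1.73 to −0.18, edgeR, adjusted p = 0.0894) and Gls2 at −0.81 (−1.45 to −0.17, 0.0842). Nags at −0.40 (−0.72 to −0.08, 0.0885) and Otc at −0.30 (−0.57 to −0.03, 0.124) were also among them. Cps1 was not, at −0.38 (−1.12 to 0.35, 0.460). DESeq2 called 2 members as lower (Asl and Gls2) and limma voom 3 (Asl, Nags and Gls2), so the count of lower members depended on the tool. Without C18:1 replicate 1, which enters the estimate of the spread, Nags was called (0.0445). Libraries did not overlap for 6 members, against 29.2% of all genes. The mean of C18:1-leucine livers lay between those of MASH and chow livers for 8 of the 10 genes, all but Slc25a15 and Glul, and the mean of C18:1 livers did so for 1, Glul. That contrast rested on the labels of 2 libraries: with groups from the treatment tags C18:1-leucine means lay between for 9 genes and C18:1 means for 10, and with both of those libraries left out for 7 and 8. By tag, Cps1 averaged 3207 CPM in C18:1-leucine, 3213 in C18:1, 2024 in MASH and 4714 in chow livers. Comparisons with chow share the chow libraries, and these positions carry no test.

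**Figure D4:**
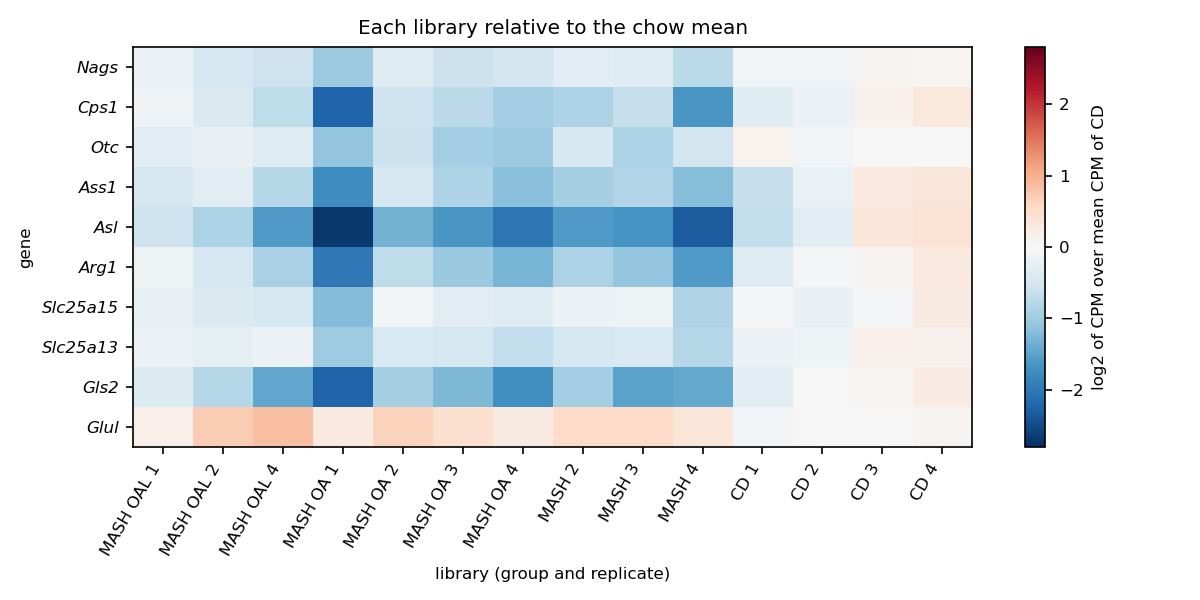
Level of each gene in each library as the log2 of its CPM over that gene's mean CPM in chow libraries. Rows are ordered by role and columns by group from C18:1-leucine to chow. Chow columns lie around 0 in every row. All MASH-diet columns lie below 0 in 9 rows and above 0 in the Glul row, and C18:1 replicate 1 is the lowest column of its group in 9 rows.

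Within a group, the same libraries were often the lowest or highest for many members, although not for all. C18:1 replicate 1 was lowest in its group for 9 members and replicate 2 highest for 10. MASH replicate 4 was lowest for 8, C18:1-leucine replicate 1 highest for 7 but lowest for Glul, C18:1-leucine replicate 4 lowest for 8 but highest for Glul, chow replicate 1 lowest for 8 and chow replicate 4 highest for 7. The 10 genes together took 1.02, 1.01 and 0.889% of all counts in C18:1-leucine libraries, 0.524, 0.977, 0.881 and 0.774% in C18:1 libraries, 0.816, 0.845 and 0.645% in MASH libraries and 0.871, 1.05, 1.26 and 1.34% in chow libraries. C18:1 replicate 1 and MASH replicate 4, with the smallest shares, were also the highest of their groups in cholangiocyte markers. C18:1 replicate 3 went the other way. Its cholangiocyte markers were nearly as high, at 393 CPM, yet its share was 0.881% and it was lowest in its group for 0 members. The 15 general hepatocyte markers ranked the libraries as the members' shares did in each MASH-diet group, but not in chow. They summed to 138300, 115700 and 94940 CPM in C18:1-leucine libraries and 77160, 98940, 90910 and 80290 in C18:1 libraries. In MASH libraries the sums were 103200, 104200 and 91350 CPM, and in chow libraries 136500, 148000, 131000 and 146200 CPM. A relation between either set of markers and the members was not tested.

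Relatives of the members, which act mostly outside the periportal cycle, were measured as well. Asns, which makes asparagine with glutamine as the nitrogen donor, stood at 2.64, 3.63 and 3.24 CPM in C18:1-leucine libraries, 1.6, 0.966, 1.2 and 3.37 in C18:1 libraries, 0.497, 1.21 and 0.655 in MASH libraries and 8.66, 7.80, 13.4 and 11.5 in chow libraries. The groups of MASH and chow libraries lay far apart, with a log2 fold change of −3.72 ± 0.44 in MASH against chow (edgeR, adjusted p = 6.49e-05). Arg2, the mitochondrial arginase, was higher by 1.14 ± 0.37 in MASH against chow at under 1 CPM in every library. Slc25a12, the other aspartate and glutamate carrier, was at −0.26 (0.0671) and Slc25a2, the other ornithine carrier, at −0.24 (0.614), and Lgsn had too few counts to be tested.

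Other genes of nitrogen metabolism were read from lists chosen with earlier results of these data known. Their counts stand beside the shares called over all tested genes. These were 35.5% in MASH, 52.6% in C18:1 and 14.5% in C18:1-leucine against chow, and 16.2% in C18:1-leucine against C18:1. Of 20 genes of amino acid breakdown, 12 were lower and 0 higher in MASH against chow, with a median log2 fold change of −0.63. They included Cth of the transsulfuration route at −1.45 ± 0.37 (edgeR, adjusted p = 0.00892), Gnmt, which methylates glycine, at −1.40 ± 0.29 (0.00284) and Tdo2, which opens tryptophan, at −1.06 ± 0.27 (0.00921). Agxt, which transaminates glyoxylate, was at −0.98 ± 0.24 (0.00762). In C18:1 against chow 19 of the 20 were lower, and in C18:1-leucine against chow 4. Between C18:1-leucine and C18:1 livers 4 were higher, including Gnmt at 0.93 ± 0.28 (0.0381), Gcsh at 0.46 ± 0.08 (0.00394) and Fah at 0.44 ± 0.11 (0.0157), with a median of 0.46 over the 20.

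Of 15 enzymes that feed nitrogen or carbonate to the cycle, 5 were lower and 3 higher in MASH against chow, with a median of −0.32. Aldh18a1, which turns glutamate towards proline and ornithine, was higher by 1.80 ± 0.22 (edgeR, adjusted p = 8.33e-05), and Sirt5, a mitochondrial deacylase known to act on Cps1, by 0.52 ± 0.13 (0.00614). Asrgl1 was higher by 0.45 ± 0.13 (0.0161), while Prodh, the proline oxidase, was at −0.83 ± 0.26 (0.0276) and Aspg, an asparaginase, at −0.60 ± 0.19 (0.0256). In C18:1-leucine against C18:1 livers 4 were higher and 1 lower. Car5a, the mitochondrial carbonic anhydrase that supplies bicarbonate to Cps1, was higher by 0.89 ± 0.22 (0.0173), Prodh by 0.88 ± 0.26 (0.0354), and Aldh18a1 was lower, at −1.27 ± 0.22 (0.00452).

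Of 13 transporters of ammonia, urea and amino acids, 11 were tested, and 5 were lower and 2 higher in MASH against chow. The system N and A carriers Slc38a3, which moves glutamine, and Slc38a2 were at −0.84 ± 0.17 (edgeR, adjusted p = 0.00241) and −1.17 ± 0.22 (0.00158). Aqp8, a water channel that also passes ammonia, was at 2.11 ± 0.39 (0.00162), and Slc1a4, a carrier of neutral amino acids, at 2.71 ± 0.25 (1.43e-05). In C18:1-leucine against C18:1 livers Slc38a3 was higher by 0.57 ± 0.17 (0.0339) and Slc38a4 by 0.59 ± 0.17 (0.0354), while Slc1a4 was lower, at −1.0 ± 0.24 (0.0168). Of 10 genes of other arginine and ornithine use, 2 were higher and 2 lower in MASH against chow. That count is near the 35.5% called over all genes and is not read as a result about the list. Among the called genes were Gatm of creatine synthesis at 0.82 ± 0.15 (0.00127) and the antizyme Oaz1 at −0.37 ± 0.07 (0.00159).

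Of 13 regulators known to act on urea cycle genes, 6 were lower and 0 higher in MASH against chow, with a median of −0.35. The glucagon receptor Gcgr was at −0.40 ± 0.08 (edgeR, adjusted p = 0.00258), Klf15, a regulator of amino acid breakdown, at −0.88 ± 0.20 (0.0052) and Hnf4a, a hepatocyte transcription factor, at −0.72 ± 0.17 (0.00536). Between C18:1-leucine and C18:1 livers Gcgr was higher by 0.35 ± 0.08 (0.0136) and Klf15 by 0.72 ± 0.20 (0.0274). Hnf4a was called lower in C18:1-leucine against chow as well, at −0.77 ± 0.17 (0.0107). Of 9 tested genes that respond to fasting or glucocorticoid, 5 were lower in MASH against chow, including Tat at −1.51 ± 0.47 (0.0249) and Pck1 at −1.10 ± 0.27 (0.00698). None of the 9 was called between C18:1-leucine and C18:1 livers. None of these lists held a called gene in either comparison with MASH livers.

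**Figure D5:**
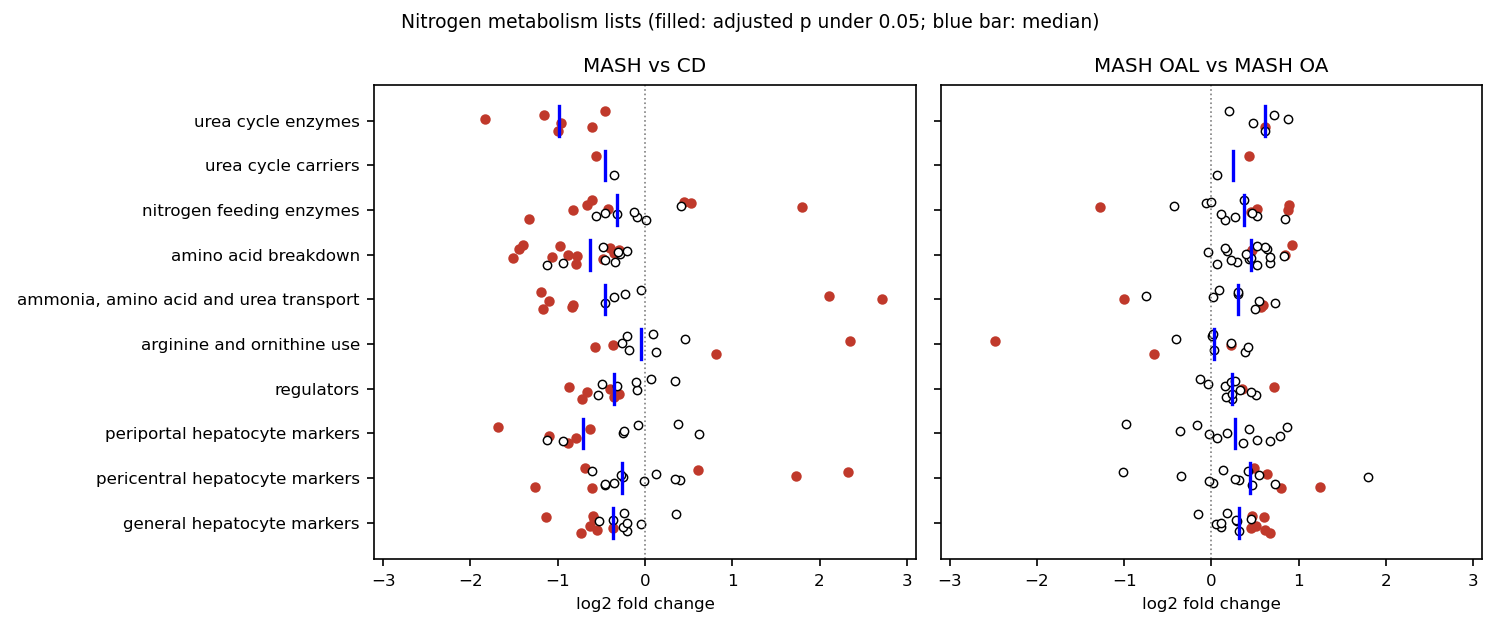
Log2 fold change of each tested gene of the nitrogen metabolism lists and hepatocyte marker lists, 1 row per list, in MASH against chow and in C18:1-leucine against C18:1, with called genes filled and the median marked. Amino acid breakdown genes centre on −0.63 in MASH against chow and on 0.46 in C18:1-leucine against C18:1.

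Markers of several cell types, but not of all, differed between the same groups. Of all tested genes, 35.5% were called in MASH against chow and 16.2% in C18:1-leucine against C18:1. Endothelial marker sums overlapped among all groups. They were 252.2 to 283.5 CPM in C18:1-leucine, 241.2 to 324.9 in C18:1, 226.8 to 313 in MASH and 238.3 to 283.6 in chow libraries. Of 6 endothelial markers, 3 were higher and 1 lower in MASH against chow. Of 15 tested general hepatocyte markers 7 were lower in MASH against chow, and 6 were higher in C18:1-leucine against C18:1 livers. Of 12 periportal markers outside the 10 genes, 5 were lower in MASH against chow, with a median of −0.71, and 0 were called in C18:1-leucine against C18:1, with a median of 0.27. Their summed level was 6041 to 9942 CPM in C18:1-leucine, 3974 to 7265 in C18:1, 5100 to 7580 in MASH and 10920 to 12150 in chow libraries. Of 16 pericentral markers other than Glul, 3 were higher and 3 lower in MASH against chow, with a median of −0.27. That count is near the 35.5% of all genes and is not read as a result about the list. In C18:1-leucine against C18:1, 4 pericentral markers were higher. The 16 summed to 10990 to 12170 CPM in C18:1-leucine, 5404 to 9132 in C18:1, 7487 to 8668 in MASH and 11000 to 12570 in chow libraries. Macrophage markers summed to 397 to 485, 660 to 961, 618 to 704 and 252 to 384 CPM in C18:1-leucine, C18:1, MASH and chow libraries, and 7 of 10 were higher in MASH against chow while 6 of 10 were lower in C18:1-leucine against C18:1. Cholangiocyte markers summed to 59.0 to 209.6, 122.4 to 432.7, 76.3 to 370.4 and 33.7 to 48.4 CPM in the same order, with 1 of 8 higher in MASH against chow and 1 of 8 lower in C18:1-leucine against C18:1. The marker called higher in MASH was Spp1. Spp1 alone averaged 100.2 CPM in C18:1-leucine, 160.2 in MASH and 32.3 in chow livers, most of those sums, so the sums are not read as bile duct content. In each of chow replicates 1, 3 and 4, 1 of these 8 markers had no counts. Stellate cell markers summed to 505 to 735.7, 530.8 to 1334, 524 to 972 and 225 to 325 CPM, higher in every MASH-diet library than in any chow library, and 7 of 9 were called higher in MASH against chow and 1 lower in C18:1-leucine against C18:1. Of the adipose markers 1 of 5, Cfd, had enough counts to be tested and was higher in MASH against chow. The 5 summed to 24.9 to 73.1, 5.33 to 61.1, 15.7 to 30.4 and 0.115 to 1.15 CPM. Cfd alone averaged 46.0 CPM in C18:1-leucine and 25.0 CPM in MASH livers, most of those sums. In each library 1 to 4 of the 5 had no counts, so the sums are not read as adipose content. The part of these cell types in the members' values was not tested.

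The tested genes whose log2 levels followed a member most closely over the 14 libraries, by Pearson's r, are given as a description, over libraries in which diet and cell type markers differ together. For Cps1 they were Gm16573 (0.976), ENSMUSG00000074521 (0.969) and Arg1 (0.963). Gm16573 is antisense to Parp4, which it lies within, and held 5943 counts in all against 11159 for Parp4. For Gls2 they were Rdh16f2 (0.988), Sfxn1 (0.974) and Serpinf1 (0.974). For Glul they were Msrb2 (0.923), Snx19 (0.896) and Qng1 (0.888).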

How the data were processed

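Expected counts per Ensembl gene were deposited in a table of all 14 libraries. The submitters' processing notes name GRCm38, HTSeq and DESeq2 1.42.1 without saying what each was used for. Per the labels' protocols, RNeasy kits gave the RNA and NEBNext Ultra II the libraries. In each library 5.09% to 5.76% of values were not whole, so expected counts were rounded. The authors also deposited 6 comparison tables of log2 fold changes and p-values, per the file headers. No key to their group letters was found, and they were not used.

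A single edgeR 4.0.16 model (R 4.3.3) covered all libraries, with TMM scaling and the robust two-sided quasi-likelihood test. The filter filterByExpr (count 10, total 15, group size 3) kept 15676 genes and all 10 members. The Benjamini and Hochberg adjustment ran over these genes, with a threshold of 0.05. Intervals cover 95%. CPM used TMM-scaled library sizes, correlations log2 CPM with a prior count of 2, and levels per kilobase the exon union of GENCODE M21. The model was tested on simulated data.

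The members and the 22 lists were chosen with earlier results of these data known. All members are named, with their paralogs and, of the other lists, at most 5 called genes per comparison, smallest adjusted p first, apart from 2 genes that are not reported here. The 3 genes most like Cps1, Glul and Gls2 are given. Of 195 list genes 3 had no row under their symbol. The alternatives tried were no filter, scaling by relative log expression, DESeq2 1.42.0, limma 3.58.1 voom, only the groups compared, a replicate block, a minimum fold of 1.2, groups by tag, and libraries left out singly or, where labels disagree, together. Leaving out libraries rich in cholangiocyte or pancreas markers was added after seeing the data. Chi-square per gene between libraries of the same group was 25 to 167.8, so none differed by counting noise alone.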

Additional observations from a re-analysis of the deposited data

How the results depend on the processing

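Of 1500 member fold changes recomputed (10 genes, 6 comparisons, 25 alternatives), 1427 kept their side of the threshold, 53 lost a call, 20 gained one and 0 called values changed sign. Another 68 values that were uncalled throughout changed sign. In MASH against chow, Otc, Asl, Arg1, Slc25a13 and Gls2 were called in all 25 alternatives. The scalings tried moved the middle of all genes little: their median lay within −0.02 to 0.014 on the log2 scale.

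With any 1 library left out, the members lower in MASH against chow were 5 to 8 and those higher 0 to 1. For C18:1 against chow they were 8 lower and 0 to 1 higher, for C18:1-leucine against chow 0 to 1 lower and 0 to 1 higher, and for C18:1-leucine against C18:1 1 to 5 higher. The higher member of MASH against chow and of C18:1 against chow, Glul in each, was lost (0 higher) when a fold of 1.2 was asked, without the 3 libraries rich in cholangiocyte markers and without the 2 rich in pancreas markers. In C18:1-leucine against chow it was lost (0 higher) with the fold of 1.2 and without the pancreas-rich libraries. There the lower members were 2 under DESeq2, 3 under limma voom, 1 in the 2 groups alone, 2 without both libraries with disagreeing labels and 1 without the cholangiocyte-rich libraries. In C18:1-leucine against C18:1 the higher members were 4 under DESeq2, 5 under limma voom, 1 in the 2 groups alone, 1 with the fold of 1.2, and 0 with groups from the tags, without both libraries with disagreeing labels, without the cholangiocyte-rich libraries or without the pancreas-rich ones. The cause was not tested.

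Same-numbered libraries of different groups deviated together little more than differently numbered ones. The median correlation was 0.032 over 18 same-numbered pairs, with 6 pairs over 0.1. It was −0.015 over 55 differently numbered pairs, with 14 over 0.1. With a replicate block, 0 members were higher in MASH against chow, with Glul at 0.39 (adjusted p = 0.0553), and the block moved no other member count by over 1.5 times. Per kilobase of the longest transcript, in place of the exon union, Cps1 ranked 3, Arg1 2, Asl 4 and Glul 5 in chow livers.

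With 3 or 4 libraries a group, intervals of the enzymes in the comparisons with MASH livers span more than 1 log2 unit for Cps1, Ass1, Asl, Arg1 and Gls2, so sizeable differences there were not detectable. The tags and titles of 2 libraries disagree, and the sources used here do not say which is right.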

Other observations

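In the groups with 4 libraries, each member was tested for a single library far from the rest. Of 22 such tests, with the Gls2 to Glul ratio in C18:1 and chow livers included, 0 had a library beyond the 95% critical value of Dixon's test, where chance alone gives about 1 in 20.

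Erythroid markers summed to 355 to 675 CPM in C18:1-leucine, 159 to 412 in C18:1, 258 to 288 in MASH and 266 to 402 in chow libraries, and 5 of 5 tested were higher in C18:1-leucine against C18:1. The part of blood cells in the members' values was not tested.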
